A study of Mus musculus with 4 samples.

Results

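Lysosomes break down proteins, lipids and sugars, and autophagy delivers cytoplasm and organelles to them. The 37 genes described here were chosen by symbol, as the rows of the gene table for listed lysosome and autophagy genes. All 37 were found once each among the 28692 genes of the table. They were divided by role into 8 groups. These were 5 proteins of the lysosomal membrane, 7 cathepsins, 6 other proteins of the lysosomal lumen, 3 transcription factors of the MiT/TFE family, 5 genes of autophagy initiation, 5 genes of the ATG8 conjugation machinery, 5 members of the ATG8 family and 1 cargo receptor. The genes were measured in hematopoietic stem and progenitor cells (HSPCs) of bone marrow, sorted as Lin-Sca1+cKit+Flt3- cells from male C57BL/6-CD45.2 mice. The labels name no treatment and no altered allele. Young mice were 2 to 3 months old and aged mice 17 to 18 months old. Each age gave 2 pools, and single cells were captured with the 10x Chromium 3′ v2 kit at 2 facilities, HalioDX (pools A) and TGML (pools B). Bone marrow of 2 (A) or 3 (B) young mice and of 3 (A) or 2 (B) aged mice was pooled. Individual mice within a pool could not be told apart, so each pool was 1 replicate. Ages follow the titles, although the free text of 2 pools (young B, aged A) gives the opposite age.

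In a lysosome, a proton pump acidifies the lumen, where cathepsins and other hydrolases work. Membrane proteins such as LAMP1 and LAMP2 line the organelle, NPC1 and NPC2 move cholesterol out of it, and the channel encoded by Mcoln1 releases calcium. TFEB, TFE3 and MITF are transcription factors that bind E-box letters in the promoters of lysosomal and autophagy genes and are held in the cytoplasm when mTORC1 is active. Autophagy starts with the ULK kinases and the Beclin 1 lipid kinase complex. The ATG7, ATG3 and ATG12-ATG5-ATG16L1 machinery then couples ATG8 proteins (the LC3 and GABARAP families) to the growing membrane, and receptors such as p62, encoded by Sqstm1, bring cargo to it. Autophagy is known to be needed for the maintenance of hematopoietic stem cells, and lysosomal activity is known to be linked to their quiescence.

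The E-box searched was CACGTG, and its extended form TCACGTGA, which contains the former, is the core of the element described for lysosomal genes. Both read the same on either strand. RefSeq promoter windows (GRCm38.p6, 250 bases before to 50 bases after a start site) were matched for 30 of 37 members. CACGTG was found in 8 of these 30 (26.7%), Lamp1, Mcoln1, Ctsa, Ctsd, Ctsl, Atg3, Atg5 and Atg7, and in 2187 of all 27025 genes with a window (8.09%). TCACGTGA was found in 4 of 30 (13.3%), Mcoln1, Ctsa, Ctsd and Atg3, and in 304 of all genes (1.12%). The 100 bases before the start of Lamp1 are shown because they held 4 copies, and 30 bases around an extended match are shown for Mcoln1, Ctsa, Ctsd and Atg3. Capitals mark the matched letters, and each sequence reads 5′ to 3′ on the strand of its gene. They lie at chr8:13159061-13159160 (plus strand), chr8:3500462-3500491 (plus), chr2:164833749-164833778 (plus), chr7:142387908-142387937 (minus) and chr16:45158746-45158775 (plus).
Lamp1: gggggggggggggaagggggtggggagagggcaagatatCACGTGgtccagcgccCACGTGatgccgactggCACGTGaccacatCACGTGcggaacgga
Mcoln1: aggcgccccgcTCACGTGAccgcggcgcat
Ctsa: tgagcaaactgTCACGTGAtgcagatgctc
Ctsd: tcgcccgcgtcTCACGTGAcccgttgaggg
Atg3: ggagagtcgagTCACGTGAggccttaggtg

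The files hold 15566 barcodes, of which 14915 were kept, namely 5189 (A) and 2244 (B) young and 3328 (A) and 4154 (B) aged cells. Kept cells of a pool summed to 16399999 to 36446168 UMIs, with medians of 5674 to 6719 UMIs per cell. Levels are in CPM, the UMIs of a gene in every 1000000 UMIs of its pool or class, and pool A comes before pool B. Kit and Ly6a (Sca1), which defined the sort, were present in every pool, at 99.3 and 74.9 CPM (young) and 164 and 71.7 CPM (aged) for Kit. Flt3, the marker sorted against, was at 48 and 15 CPM in young and 10.5 and 2.4 CPM in aged pools. Summed levels of 10 macrophage markers were 11.3 to 18.9 CPM in all pools. Summed levels of 10 B and plasma cell markers were 113 and 102 CPM in young and 1311 and 351 CPM in aged pools, and without cells holding at least 2 genes of another cell type edgeR also called 0 members with age in whole pools. That step took out 302 and 97 young and 1884 and 277 aged cells, so it removed 1884 of the 3328 cells of aged pool A. Pairs of libraries shared 10 to 29 barcodes, at most 0.813% of the smaller library.

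All 37 members were detected in every pool, from 69 UMIs (Map1lc3a in young pool B) upward, and all passed the filter on low counts. Laptm4a, a transporter-like protein of the lysosomal membrane, was at 310 and 329 CPM in young and 441 and 364 CPM in aged pools. Psap, the precursor of the saposins that assist lipid hydrolysis, was at 244 and 204 CPM in young and 312 and 192 CPM in aged pools, and the ages overlapped. Map1lc3b and Gabarap, which encode ATG8 proteins, were at 323 to 487 CPM in all pools. The 3 MiT/TFE factor genes were at 3.05 to 12.6 CPM. Each molecule was counted from its 3′ end, and the levels of different genes were not ranked.

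**Figure D1:**
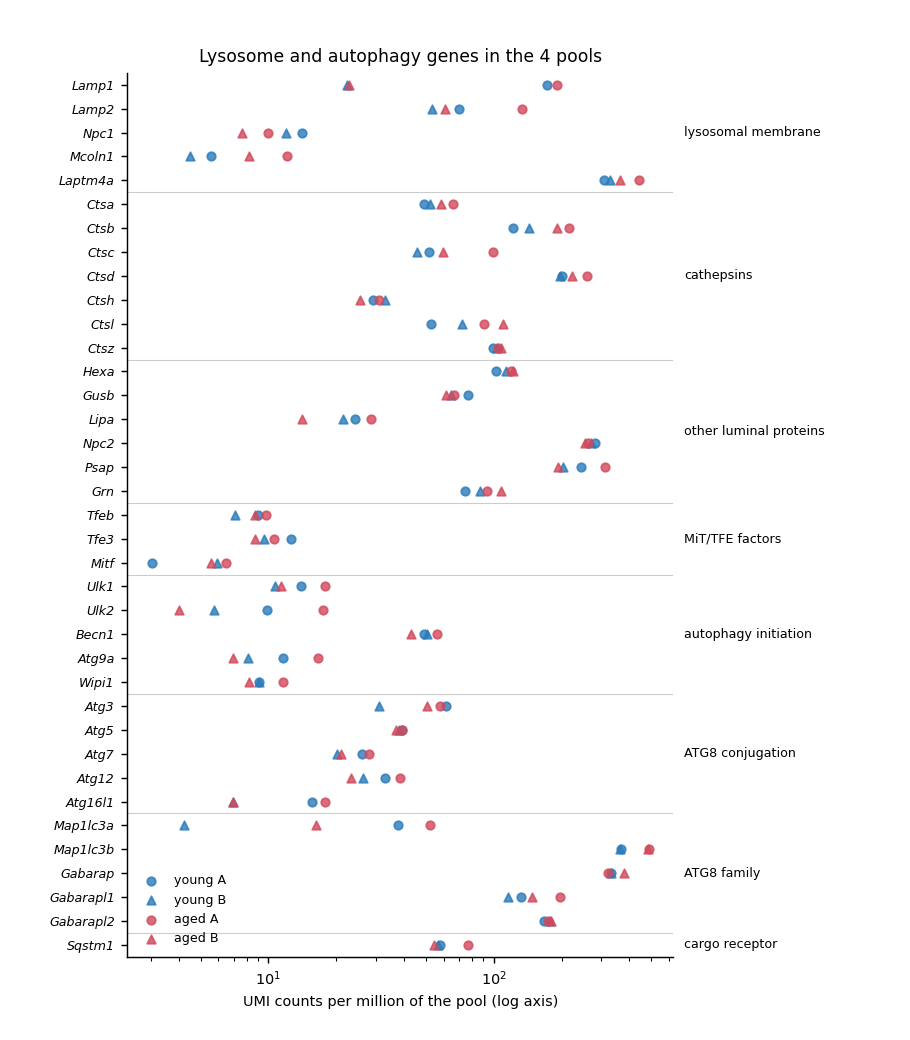
CPM (log axis) of the 37 members in young pools A and B (blue) and aged pools A and B (red), with circles for platform A, triangles for platform B and members ordered by role. Lamp1 sat at 172 and 191 in both A pools and at 22.4 and 22.8 in both B pools, whereas for Mcoln1 both aged pools lay above both young pools.

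The first comparison asked whether the genes differ between young and aged HSPCs. No member passed the test in whole pools, whereas Mcoln1, Map1lc3a, Ctsl and Ctsc had the largest positive fold changes and Npc1 the largest negative one among members that moved the same way on both platforms. Sums over the cells of each pool were compared by the quasi-likelihood test of edgeR, in which the platform was a block, with p-values adjusted by Benjamini-Hochberg, and 0 of 37 members had an adjusted p under 0.05, beside 275 of 13555 genes tested (2.03%). DESeq2 also called 0 members. At an unadjusted p under 0.05 there were 6 of 37 members and 2175 of 13555 genes. In whole pools, fewer cells of a type and less RNA per cell cannot be told apart. The median log2 fold change was 0.11 over the members and 0.01 over all genes, with 27 members positive and 10 negative. Both aged pools lay above both young pools for 12 of 37 members (18.1% of all genes) and below them for 2 (13.6% of all genes). Among the 12 were 6 of 7 cathepsin genes, all but Ctsh. The margin of Ctsz was small, at 99.2 and 103 CPM in young and 104 and 108 CPM in aged pools. Overlap was judged on CPM, without the scaling used in the fit. With 2 pools per age, 29 of 37 members had a 95% interval that stayed within a 2-fold change, and 13 of 37 one that stayed within 1.5-fold. These intervals may be too narrow, since the fit made more false calls on simulated data than its threshold allows.

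Mcoln1 (ENSMUSG00000004567, chr8:3500457-3515232) encodes the calcium channel of the lysosomal membrane. Its young level was 5.57 and 4.51 CPM and its aged level 12.1 and 8.17 CPM, from 203, 74, 252 and 272 UMIs. Both aged pools lay above both young pools, so the ages did not overlap. The fitted log2 fold change was 0.94 (95% interval 0.45 to 1.43), with an adjusted p of 0.0942 (edgeR), above the threshold. Without the filter on low counts the adjusted p was 0.0367 (edgeR), a setting that called 774 of 19025 genes in place of 275 of 13555. No other setting called Mcoln1 in whole pools.

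Map1lc3a (ENSMUSG00000027602, chr2:155276297-155278073) encodes LC3A. Its level was 37.7 and 4.21 CPM in young and 52.1 and 16.3 CPM in aged pools, so both A pools lay above both B pools and the ages overlapped. Its log2 fold change was 1.10 (0.05 to 2.14), with an adjusted p of 0.289 (edgeR). Leaving out a pool, in fits without the platform, moved it from -0.19 (without young pool B) and -0.18 (without aged pool A) to 2.75 with an adjusted p of 0.00254 (without young pool A). In these fits the pools of each age came from unequal mixes of platforms.

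Among cathepsins, the acid proteases of the lumen, Ctsl (ENSMUSG00000021477, chr13:64359337-64370890) was at 52.5 and 72.3 CPM in young and 90.7 and 110 CPM in aged pools. The ages did not overlap, and the log2 fold change was 0.65 (0.24 to 1.05), with an adjusted p of 0.14 (edgeR). Ctsc, whose product activates granule proteases, was at 51.4 and 45.5 CPM in young and 99.3 and 59.3 CPM in aged pools, with a log2 fold change of 0.62 (0.15 to 1.08) and an adjusted p of 0.193 (edgeR). The other 5 cathepsin genes had log2 fold changes from -0.19 (Ctsh) to 0.57 (Ctsb). HSC-like cells, in which Ctsl was higher than in all other classes tested (below), made up 30.4% and 37.6% of cells in young and 50.2% and 63.7% in aged pools. Within HSC-like cells Ctsl was at 73.4 and 98.9 CPM in young and 107 and 130 CPM in aged pools. Within cells of neither stem, lineage nor mitotic class it was at 62.7 and 75.5 CPM in young and 90 and 105 CPM in aged pools. The share of the cell mix in the whole-pool change was not tested.

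Npc1, the cholesterol exporter of the membrane, was at 14.1 and 12 CPM in young and 9.91 and 7.66 CPM in aged pools. Every aged value lay below every young one, with a log2 fold change of -0.63 (-1.09 to -0.17) and an adjusted p of 0.183 (edgeR). Tfe3, a MiT/TFE factor, Gusb, the beta-glucuronidase, and Npc2, the soluble partner of NPC1, had the next largest negative fold changes of members that moved the same way on both platforms, at -0.24, -0.19 and -0.14. Their intervals included 0. Genes of autophagy initiation and ATG8 conjugation lay between -0.08 and 0.26.

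**Figure D2:**
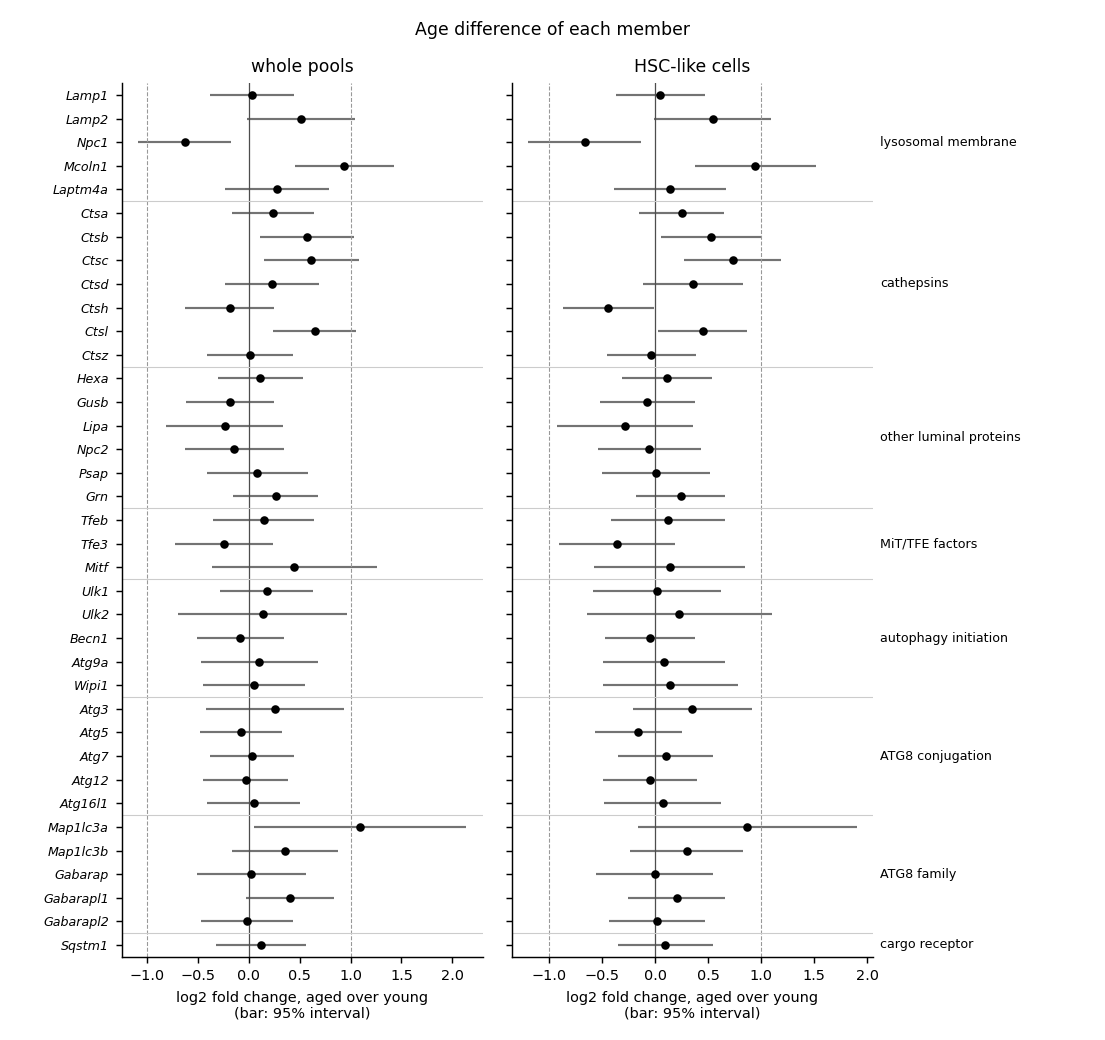
Log2 fold change of each member, aged over young, in whole pools (left) and HSC-like cells (right), with 95% intervals as bars and dashed lines at a 2-fold change. Mcoln1 was at 0.94 in both, and most intervals spanned 0.

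Because the mix of cells differed between ages, age was also compared inside classes. Cells were put in classes by detected marker genes, none of which is a member. A lineage-primed cell held UMIs of at least 3 of 10 genes of 1 lineage, whether or not it held mitotic genes. Of the rest, a mitotic cell held at least 4 of 10 mitotic genes. An HSC-like cell met neither gate and held at least 4 of 10 stem cell genes. Cells that met several lineage lists equally (344) were set aside as mixed and not tested, and the remaining cells were called other unprimed. There were 6735 HSC-like and 3740 other unprimed cells. Many cells sat near the gates, with 409 to 745 cells per pool exactly at the HSC-like one and 312 to 784 a single gene below it. The classes were not fully matched between ages. Aged HSC-like cells held on average 5.37 (A) and 5.37 (B) stem cell genes, against 4.81 and 4.76 in young pools. Other unprimed cells held 2.45 and 2.55 in aged and 2.21 and 2.18 in young pools. The stem cell genes of the gate include Procr and Esam, which the paper reports as higher with age. A larger share of HSC-like cells and more detection of such genes per cell cannot be told apart.

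In HSC-like cells, 0 of 37 members passed the edgeR test, beside 131 of 12187 genes (1.07%), DESeq2 also called 0, and 6 members had an unadjusted p under 0.05, as did 1479 of the 12187 genes. Mcoln1 was at 6.13 and 4.79 CPM in young and 12 and 9.51 CPM in aged pools, with a log2 fold change of 0.94 (0.38 to 1.51). Ctsc was at 51.8 and 45.3 CPM in young and 105 and 63.6 CPM in aged pools, at 0.73 (0.27 to 1.19). Neither group of values overlapped between ages. Lamp2, a membrane glycoprotein and receptor of chaperone-mediated autophagy, was at 76.2 and 59.8 CPM in young and 148 and 67.2 CPM in aged pools, at 0.54 (-0.01 to 1.09). Aged pool B lay below young pool A, so its ages overlapped. Map1lc3a was at 0.87, Ctsl at 0.45 and Ctsb at 0.53. Npc1 was at 16.7 and 11.7 CPM in young and 10.1 and 7.99 CPM in aged pools, with a log2 fold change of -0.67 (-1.20 to -0.13). Ctsh, an aminopeptidase of the lumen, followed at -0.45, and Tfe3 and Atg5, part of the ATG12 conjugate, at -0.36 and -0.16.

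In other unprimed cells, edgeR called 0 of 37 members, beside 104 of 11145 genes (0.933%), DESeq2 called 0, and 5 members had an unadjusted p under 0.05, as did 1118 of the 11145 genes. The largest positive log2 fold changes were 1.01 for Mcoln1, 0.93 for Map1lc3a, 0.69 for Mitf and 0.57 for Lamp2. Mitf rested on 21 to 34 UMIs per pool in these cells. Negative values were led by Npc1 at -0.64, Lipa, the acid lipase, at -0.50, Tfe3 at -0.38 and Ctsh at -0.37. Lipa was at 26.4 and 20.4 CPM in young and 19.4 and 14.1 CPM in aged pools. A class by age term found no member whose age change differed between HSC-like and other unprimed cells by edgeR (0 of 37, beside 75 of 12273 genes, 0.611%) or by DESeq2 (0), with 1 member, Ctsc, at an unadjusted p under 0.05. For 36 of 37 members the interval of that difference stayed within 2-fold, the exception being Mitf.

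Related genes that are no members were read from 4 further lists with 126 genes. Of 17 genes of the proton pump (V-ATPase), 35 other autophagy genes and 26 genes of mTORC1 and TFEB control, 0 passed the edgeR test with age in whole pools, and 0, 1 and 0 of them had an unadjusted p under 0.05. DESeq2 called 1 of them, Vmp1, an autophagy gene named here after its value was seen. Of 48 other lysosomal genes, Lgmn alone passed by edgeR, beside 2.03% of all genes. At an unadjusted p under 0.05 there were 7 of the 48, beside 2175 of 13555 genes. DESeq2 called Ctss and Gm2a as well, beside 528 of 19025 genes. Lgmn (ENSMUSG00000021190, chr12:102394084-102439813), the asparaginyl endopeptidase that processes cathepsins, was at 1.7 and 2.99 CPM in young and 6.21 and 9.43 CPM in aged pools, from 62, 49, 129 and 314 UMIs. Both aged pools lay above both young pools, and the log2 fold change was 1.71 (1.14 to 2.28), with an adjusted p of 0.037 (edgeR). In HSC-like cells it was 2.06 (1.38 to 2.75), with an adjusted p of 0.0488 (edgeR). On simulated data the edgeR age fits made 26 (whole pools) and 30 (HSC-like cells) false calls, so both calls of Lgmn are uncertain. Leaving out any 1 of the 4 pools ended the whole-pool call, at log2 fold changes of 1.18 to 2.28. Of the same list, Ctss, named after its value was seen, was the only gene whose age change differed between the 2 classes, with an age change in log2 that was 1.66 (1.25 to 2.08) higher in other unprimed cells.

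The second comparison asked how the members differ between classes of HSPCs within the same pools. Most members that differed were lower in primed and mitotic cells than in HSC-like cells. Of 37 members, 25 were lower and 7 higher than in HSC-like cells in at least 1 of the 5 primed or mitotic classes tested, 3 of them in both directions, and 8 passed in none. Of 10353 genes tested in all 5 classes, 31.1% were lower and 32.2% higher in at least 1, and 39.4% passed in none. Ctsl, Gabarapl1 and Laptm4a were lower in all 5 classes (3.64% of genes), and Ctsb, Ctsh, Psap, Map1lc3a and Map1lc3b in 4, so that 8 members were lower in at least 4 (7.89% of genes). The members that were higher in some class were Ctsd, Ctsz, Gusb, Npc2, Becn1, Wipi1 and Atg3. Each pool gave a sum per class, and the pool was the block of the edgeR test. A lower CPM here is a lower share of the RNA counted in a class. Median UMIs per cell were 5488 to 6532 in HSC-like cells and higher in most primed and mitotic classes, up to 12106 in mitotic cells of aged pool B. Other unprimed cells had medians of 4210 to 5561, below HSC-like cells in each pool. Counts with every cell thinned to 3000 UMIs are given in the closing part. Classes were set on the full counts, before thinning. The gates do not remove doublets, and cells exactly at the lineage gate numbered 240 to 919 per pool. The lineage gate came before the mitotic and stem cell ones, so primed cells could also hold mitotic and stem cell genes. Mitotic genes per cell averaged 1 to 3.63 (neutrophil-primed), 1.04 to 2.35 (mast/basophil-primed), 1.44 to 2.07 (erythroid-primed) and 1.23 to 2.29 (megakaryocyte-primed) over the pools. In HSC-like cells, which exclude the mitotic class, they averaged 0.262 to 0.46. The part of dividing cells in the primed-class differences was not tested. Megakaryocyte-primed cells of aged pools held on average 4.61 (A) and 4.82 (B) stem cell genes against 3.77 and 3.54 of their own list. Neutrophil-primed cells of aged pool A held 4.56 against 3.73, and erythroid-primed cells of aged pool B 3.87 against 3.71. In every other pool of these 3 classes, and in mast/basophil-primed and mitotic cells, the mean of their own list was ahead. By the median, erythroid-primed cells of both aged pools held 4 stem cell genes against 3 of their own, and megakaryocyte-primed cells of both young pools 3 of each. With stricter gates, 21 members were called in megakaryocyte-primed, 16 in neutrophil-primed and 21 in erythroid-primed cells. Over all genes, 3841 of 10179, 3971 of 10304 and 4785 of 10065 were called in the same order.

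**Figure D3:**
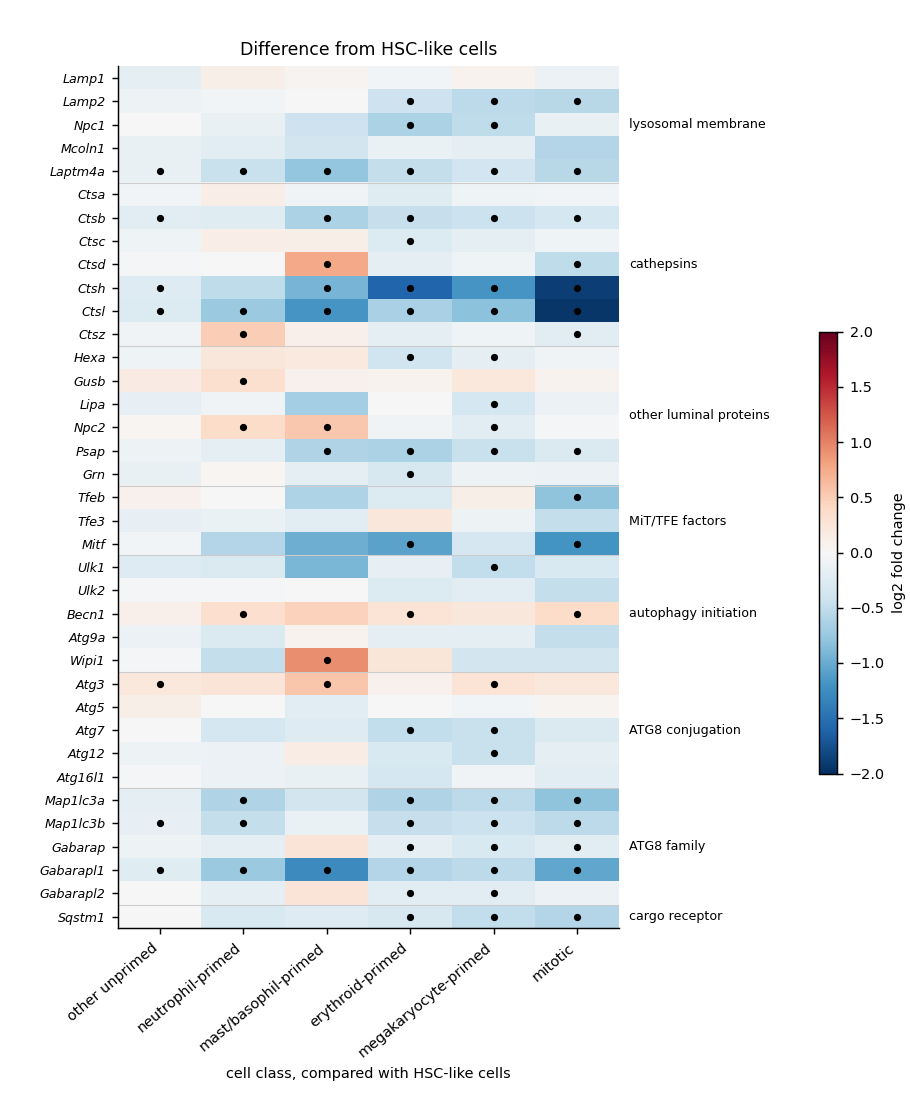
Log2 fold change of each member (rows, ordered by role) in 6 classes against HSC-like cells (columns), with black dots where the edgeR adjusted p was under 0.05. Ctsl and Ctsh were deepest blue in mitotic cells at -1.94 and -1.89. Red fields (higher level) with a dot were few, led by Wipi1 at 0.93 in mast/basophil-primed cells.

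Mitotic cells (596) held the largest fold changes of any class against HSC-like cells. Lower were 15 of 37 members (19.0% of 10754 genes were lower) and higher was 1 (21.2% of genes were higher), and the median log2 fold change was -0.30 over members and -0.01 over all genes. Ctsl was at 15.9 and 28 CPM in young and 21.2 and 39.6 CPM in aged mitotic cells, against 73.4, 98.9, 107 and 130 CPM in HSC-like cells. The values did not overlap, and the log2 fold change was -1.94 (-2.18 to -1.69), with an adjusted p of 2.25e-13 (edgeR). Ctsh was at 4.75 to 18.9 CPM in mitotic and 30.1 to 46.5 CPM in HSC-like cells, with a log2 fold change of -1.89 (-2.29 to -1.48). Mitf followed at -1.20, with an adjusted p of 0.015 (edgeR), from only 1 to 10 UMIs per pool in mitotic cells. Gabarapl1 at -1.03 was among the 4 of 5 ATG8 family genes that were lower. Becn1, which encodes Beclin 1, was higher in 4 of 4 pools at 0.37 (0.15 to 0.59), with 50.7 to 87 CPM against 39.6 to 51.1 CPM.

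Erythroid-primed cells (903) had 18 members lower (18.2% of 10946 genes) and 1 higher (18.2%). All 5 ATG8 family genes, 4 of 7 cathepsins and 3 of 5 membrane genes were among the lower, and the median over members was -0.28, beside -0.05 over all genes. Ctsh was at 12.4 and 6.88 CPM in young and 18.5 and 10.6 CPM in aged erythroid-primed cells, each below HSC-like cells of its pool, with a log2 fold change of -1.58 (-1.93 to -1.23) and an adjusted p of 3.19e-07 (edgeR). Mitf at -1.08, from 3 to 8 UMIs per pool, and Ctsl at -0.65 came next. Becn1 was the member that was higher, at 0.27 (0.07 to 0.47). Without young pool A, 10 members were called in place of 19, and 2432 of all genes in place of 3990.

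Megakaryocyte-primed cells (1018) were alike in count, with 19 members lower (15.7% of 11059 genes) and 1 higher (16.6%), and a median of -0.23 beside -0.03. All 5 ATG8 family genes and 4 of 6 other luminal genes were lower. Ctsh was at 13.7 and 14.2 CPM in young and 21 and 17.8 CPM in aged pools, at -1.18 (-1.45 to -0.90). Ctsl at -0.82 (-1.01 to -0.62) and Gabarapl1, a GABARAP family gene, at -0.53 (-0.67 to -0.39) were lower than in HSC-like cells in 4 of 4 pools. Atg3, the enzyme that transfers ATG8 to lipid, was higher at 0.28 (0.08 to 0.48), in 3 of 4 pools. DESeq2 called 13 members in place of 20, and edgeR also 13 without aged pool A. Over all genes the counts were 2260 and 3008 in place of 3573.

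Mast/basophil-primed cells (288, and 25 in aged pool B) showed members in both directions, with 6 lower (9.22% of 10589 genes) and 4 higher (11.2%). Ctsd, the aspartic protease of the lumen, was at 295 and 399 CPM in young and 291 and 493 CPM in aged mast/basophil-primed cells, against 203, 190, 286 and 230 CPM in HSC-like cells. It was higher in every pool, though by little in aged pool A, at 0.76 (0.48 to 1.05) with an adjusted p of 7.29e-05 (edgeR). Wipi1, a lipid-binding protein of early autophagosomes, was at 0.93 (0.30 to 1.57), from 2 to 24 UMIs per pool, and Atg3 at 0.56. Gabarapl1 was at 86 and 43.1 CPM in young and 103 and 22.9 CPM in aged pools, from 4 to 117 UMIs, at -1.28 (-1.62 to -0.93). Ctsl at -1.19, from 9 to 44 UMIs per pool, and Ctsh at -0.93, from 3 to 27, were also lower, the latter in 3 of 4 pools. Of the V-ATPase genes, 6 of 16 tested were higher (11.2% of all genes) and 0 lower (9.22%) in these cells, where 8 had an unadjusted p under 0.05.

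In neutrophil-primed cells (1249), 5 members were lower (9.78% of 11226 genes) and 4 higher (14.1%). Ctsz, a carboxypeptidase, was at 125 and 117 CPM in young and 136 and 221 CPM in aged pools, against 99.9, 110, 101 and 107 CPM in HSC-like cells. Its values did not overlap, with a log2 fold change of 0.50 (0.21 to 0.79) and an adjusted p of 0.0228 (edgeR). Npc2 at 0.36 and Becn1 at 0.33 were also higher in 4 of 4 pools. Gabarapl1 and Ctsl, both at -0.75, and Map1lc3a, at -0.60 from 3 to 148 UMIs per pool, led the lower members. Aged pool B held 57 of these cells, against 180 to 585 in the other pools. Without young pool A 3 members were called and without young pool B 4, in place of 9. Over all genes the counts were 905 and 1027 in place of 2686.

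Other unprimed cells differed least from HSC-like cells, with 6 members lower (4.76% of 11639 genes) and 1 higher (5.76%). The 6 were Ctsl, Ctsh, Gabarapl1, Ctsb, Map1lc3b and Laptm4a. Ctsl at -0.28 (-0.39 to -0.17), Ctsh at -0.26 (-0.41 to -0.11) and Gabarapl1 at -0.24 (-0.34 to -0.13) were lower in 4 of 4 pools. Atg3 was higher at 0.21 (0.08 to 0.35), in 3 of 4 pools. Without young pool A or without young pool B, 4 members were called in place of 7. Over all genes the counts were 687 and 648 in place of 1224. Lymphoid-primed cells numbered 42, with 2 to 27 per pool, and were not tested.

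**Figure D4:**
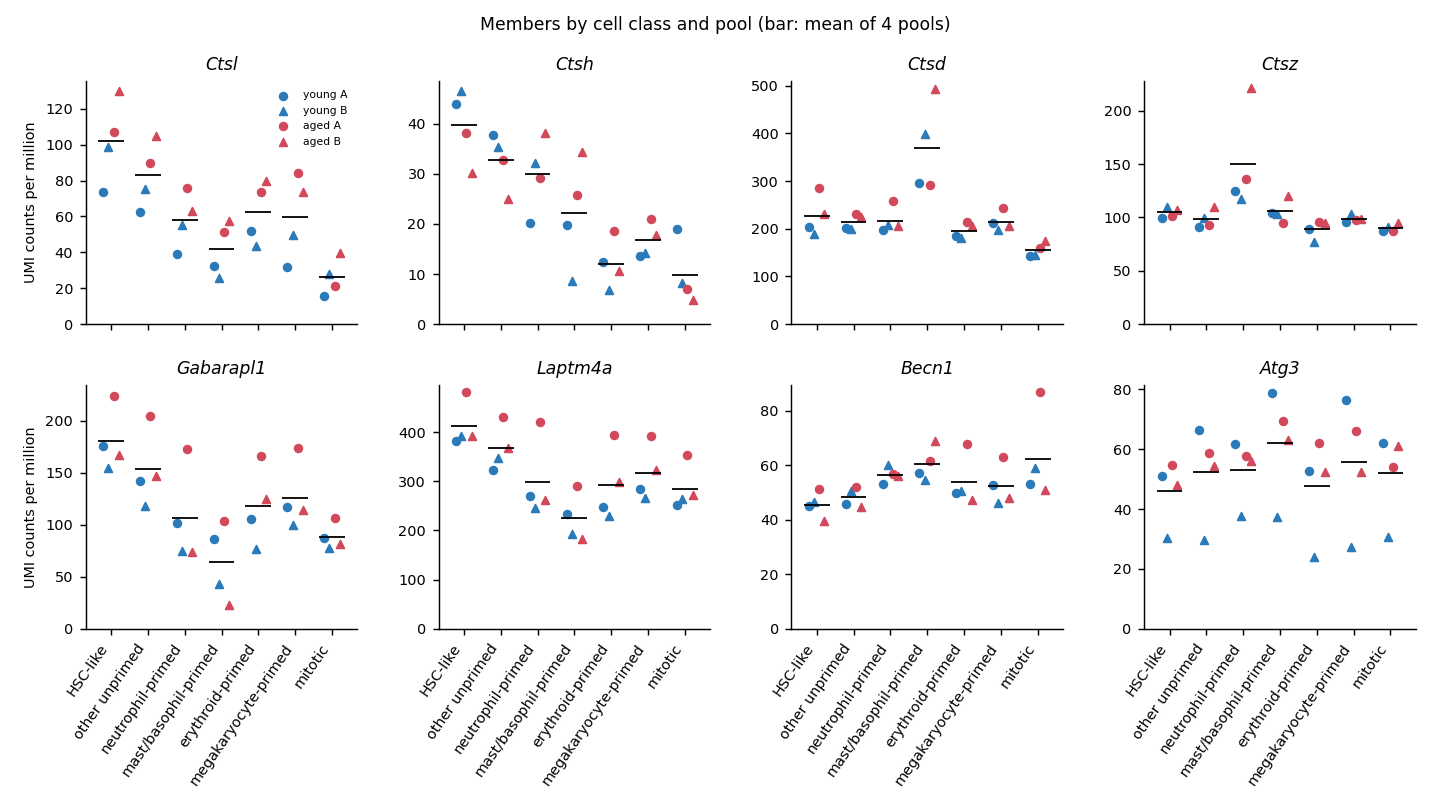
CPM of 8 members in 7 classes, with 1 point per pool (blue young, red aged, circles platform A, triangles platform B) and bars at the mean of 4 pools. Ctsl fell from 73.4 to 130 in HSC-like cells to 15.9 to 39.6 in mitotic cells in every pool, and the mean of Ctsd was 369 in mast/basophil-primed and 227 in HSC-like cells.

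By role, the ATG8 family was lower most often, with 3 (neutrophil-primed), 1 (mast/basophil-primed), 5 (erythroid-primed), 5 (megakaryocyte-primed) and 4 (mitotic) of 5 genes. Of all genes, 9.78%, 9.22%, 18.2%, 15.7% and 19.0% were lower in the same order. In mast/basophil-primed cells, 2 of the 5 had a positive fold change. Map1lc3b, which encodes LC3B, was at 426 to 550 CPM in HSC-like cells of the 4 pools and at 276 to 417 CPM in erythroid-primed cells. Each erythroid-primed value lay below HSC-like cells of its own pool, at -0.46 (-0.60 to -0.31). Sqstm1, the gene of the cargo receptor p62, was lower in erythroid-primed (-0.33), megakaryocyte-primed (-0.49) and mitotic cells (-0.58). Its mitotic values of 38 to 49.5 CPM lay below all HSC-like values of 58.5 to 84.7 CPM. Of the conjugation genes, Atg7, the activating enzyme, was lower in erythroid-primed (-0.50) and megakaryocyte-primed cells (-0.45), and Atg12 in megakaryocyte-primed cells (-0.44). Of the initiation genes, Ulk1, the starting kinase, was lower in megakaryocyte-primed cells (-0.49).

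Among genes of the lumen and membrane, Psap was lower in 4 of 5 classes, most in erythroid-primed cells (-0.64), where it was at 162 and 108 CPM in young and 239 and 169 CPM in aged pools. Hexa, a subunit of beta-hexosaminidase, was lower in erythroid-primed (-0.40) and megakaryocyte-primed cells (-0.20), Grn, the progranulin gene, in erythroid-primed cells (-0.31) and Lipa in megakaryocyte-primed cells (-0.35). Lamp2 was lower in erythroid-primed (-0.41), megakaryocyte-primed (-0.53) and mitotic cells (-0.56), and Npc1 in the former 2 (-0.63 and -0.51). Npc2 was higher in neutrophil-primed and mast/basophil-primed cells (0.36 and 0.54) and lower in megakaryocyte-primed cells (-0.23). Tfeb was lower in mitotic cells at -0.80, from 0 to 15 UMIs per pool. The 8 members that passed in none of the 5 classes were Lamp1, Mcoln1, Ctsa, Tfe3, Ulk2, Atg9a, Atg5 and Atg16l1, with edgeR. Their intervals reached from -1.38 to 0.78 in mast/basophil-primed cells, the class with fewest cells, and from -0.68 to 0.36 in neutrophil-primed cells.

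Related genes that are no members were read against the shares of all genes given with each class above. Of 48 further lysosomal genes, 16, 14 and 15 were lower in erythroid-primed, megakaryocyte-primed and mitotic cells (18.2%, 15.7% and 19.0% of all genes) and 2, 1 and 1 higher (18.2%, 16.6% and 21.2%). In mast/basophil-primed cells 9 were higher (11.2% of all genes) and 4 lower (9.22%) of 46 tested, and in neutrophil-primed cells 8 were higher (14.1%) and 5 lower (9.78%) of 48. Of 35 other autophagy genes, 7, 8 and 6 were lower and 1, 1 and 2 higher in erythroid-primed, megakaryocyte-primed and mitotic cells, near the shares of all genes for lower and under them for higher. In mast/basophil-primed cells 2 were lower and 3 higher, and in neutrophil-primed cells 5 were lower and 0 higher (8 at an unadjusted p under 0.05, edgeR). Genes of mTORC1 and TFEB control were higher in 2 to 4 and lower in 1 of the 24 or 25 tested in each primed or mitotic class, shares near or under those of all genes. In erythroid-primed, megakaryocyte-primed and mitotic cells, 4, 3 and 4 of 16 V-ATPase genes tested were lower (18.2%, 15.7% and 19.0% of all genes). Higher were 1, 1 and 2 of them (18.2%, 16.6% and 21.2%). In neutrophil-primed cells 1 V-ATPase gene was lower (9.78%) and 1 higher (14.1%).

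The plot of levels also showed members that differed by platform, which was looked at after the values were seen and is described without a test. Lamp1 (ENSMUSG00000031447, chr8:13159161-13175338), a main glycoprotein of the lysosomal membrane, was 7.65 times as high in pool A as in pool B in young and 8.37 times in aged mice. Within HSC-like cells it was at 178 and 196 CPM in A pools and 22.7 and 22.9 CPM in B pools, and the same order held in all 7 classes compared. It was the only member at least 2 log2 units apart in both ages, as were 152 of 13555 genes (1.12%). Map1lc3a was 8.95 and 3.19 times as high on platform A in young and aged mice, and Atg16l1, which directs the conjugation site, 2.24 and 2.55 times. Ulk2, an initiating kinase, was 1.72 times as high in young and 4.35 times in aged mice. Sequencing facility, library and batch of mice cannot be told apart in this difference, and the platform block removes it from the age test only where it is alike in both ages. The paper gives more reads per cell for aged pool A and young pool B than for young pool A and aged pool B. Read depth thus differed with age in opposite directions on the 2 platforms. The age fold change of Lamp1 was 0.03 (-0.38 to 0.45).

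**Figure D5:**
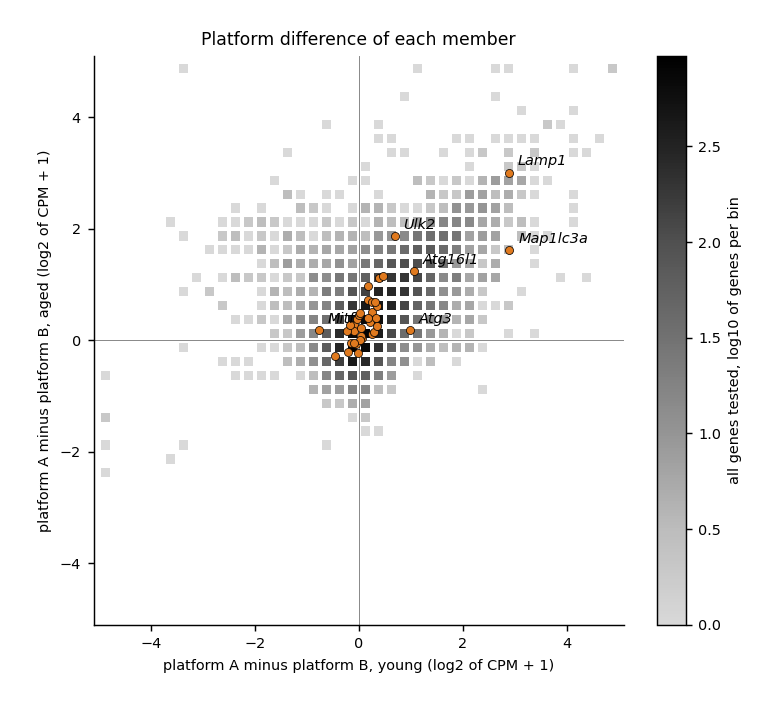
Difference between platforms, A minus B on the scale of log2(CPM + 1), in young (x axis) and aged (y axis) pools, for the 37 members (orange) over all 13555 genes tested (grey, genes per bin, with values past 4.9 drawn at the edge). Lamp1 stood at 2.88 and 3.01, whereas most members lay near the centre of all genes.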

How the data were processed

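The authors deposited raw UMI counts per gene and barcode, made with Cell Ranger 2.2.0 on GRCm38.p4 (mm10). No source used here gives the annotation release; gene positions are from GENCODE M21 on the same build. Titles and source names gave the age. In the free text, 2 pools (young B, aged A) are described with the opposite age. Cells over 2 SD away from the pool's mean of log UMIs were dropped. Counts were summed per pool or per class and pool (at least 10 cells) and tested with edgeR 4.0.16 (TMM, filterByExpr, quasi-likelihood test, Benjamini-Hochberg at 0.05) in R 4.3.3, with DESeq2 1.42.0 as an alternative. Deviations of young and aged pools of the same platform letter correlated at 0.488 over 13555 genes, and the letter marks the shared batch and facility, so it was the block. Intervals are the fold change with its standard error and the t quantile of the fit. The class by age fit took its spread almost wholly from all genes together, so its intervals may be too narrow. The fits of age in whole pools and in HSC-like cells, of erythroid-primed against HSC-like cells and of class by age were tested on simulated data. Both age fits missed most 2-fold changes and made more false calls than the threshold allows, so the age intervals may also be too narrow. The erythroid-primed fit of edgeR was also above the threshold, with 15 false calls. It found 38, 61 and 67 of the genes changed by 1.5-, 2- and 4-fold. The other comparisons used the same code and were not simulated. With 2 pools per age and the platform as block, age p-values rest on how far the age change differed between platforms. Reads per cell differed with age in opposite directions on the 2 platforms, and the part of depth in that disagreement was not tested. In class comparisons the p-values rest on how far the class difference varied between pools, taken more from all genes together than from the gene tested. The class intervals may thus also be too narrow. In every edgeR fit the spread of a gene was drawn toward that of all genes, so no interval rests on its own pools alone.

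The members and lists were chosen with earlier results of these data known. Members called with age were to be named in full, otherwise the 4 with the largest fold in each direction that moved the same way on both platforms, and in each class comparison the 3 called with the largest change in each direction. Reads of Map1lc3b may be split with the overlapping Gm20388 on the same strand. The Ctsa, Ctsd and Mcoln1 sequences shown overlap annotated exons. Promoter sequences are from RefSeq.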

Additional observations from a re-analysis of the deposited data

How the results depend on the processing

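With 0 members called with age in whole pools, HSC-like and other unprimed cells, the exceptions were 1 member without the filter on low counts in whole pools (Mcoln1) and 1 in other unprimed cells (Map1lc3a), and 1 without young pool A in all 3 comparisons (Map1lc3a), so counts without 1 pool ran from 0 to 1. The fold change of Map1lc3a without 1 pool ran from -0.19 to 2.75 in whole pools, -0.37 to 2.63 in HSC-like cells and -0.52 to 2.80 in other unprimed cells, and that of Npc2 from -0.29 to 0.0036 in whole pools. Fits of age without 1 pool had no platform term, and a lone pool was assumed to vary like the other age. Without the replicate block, members called against HSC-like cells fell to 0 (neutrophil-primed), 3 (mast/basophil-primed), 1 (erythroid-primed), 1 (megakaryocyte-primed), 5 (mitotic) and 0 (other unprimed), from 9, 10, 19, 20, 16 and 7. Over all genes the calls fell in the same order to 216, 634, 330, 219, 995 and 1, from 2686, 2163, 3990, 3573, 4317 and 1224. Stricter gates raised the neutrophil-primed count to 16, and DESeq2 lowered the megakaryocyte-primed one to 13. Over all genes these went from 2686 to 3971 and from 3573 to 2260. Thinned to 3000 UMIs, the counts were 8, 8, 14, 14, 14 and 7 in the order above. The counts over all genes were then 1232, 1179, 2121, 1832, 2548 and 685. Without 1 pool the member counts ran from 3 to 13, 7 to 10, 10 to 18, 13 to 19, 13 to 14 and 4 to 7. Those over all genes ran from 905 to 2851, 1382 to 2180, 2432 to 3709, 2437 to 3168, 3402 to 4042 and 648 to 1160. The 1 related gene called with age in whole pools became 4 by DESeq2 and without the filter, 3 without cells holding markers of other cells, 2 with all barcodes, and 0 without the replicate block, with library size only or thinned (these alternatives were chosen after seeing the data), and 0 to 1 without 1 pool. Over all genes, 275 called with age in whole pools became 528 by DESeq2, 774 without the filter, 589 without cells holding markers of other cells, 154 thinned, 74 with library size only, 0 without the replicate block (1103 at an unadjusted p under 0.05, edgeR) and 0 to 287 without 1 pool. The cause of these shifts was not tested. Of 520 recomputed fold changes of named members and Lgmn, 420 kept their direction and side of the threshold, 88 were no longer past it, 5 passed it and 7 changed sign. No named member was past the threshold in an age comparison, so the 420 include values that had no call to lose. Without the replicate block, 24 values were no longer past it and 30 kept direction and side. Lymphoid-primed cells could not be fitted under any setting. Members under about 10 CPM rest on few UMIs per class, and in small classes so do some at higher levels. In mast/basophil-primed cells of aged pool B, Gabarapl1 at 22.9 CPM was 4 UMIs.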
